A study of Drosophila melanogaster with 3 samples.

Results

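The nuclear tRNA genes of Drosophila melanogaster were examined for Pif1A-GFP peaks in whole pupae. They are the 290 genes of biotype tRNA that the Ensembl release 115 annotation places on the nuclear chromosome arms of dm6, out of 17947 annotated genes there, and all 290 have the same coordinates in RefSeq. A tRNA gene was counted as having a peak when the summit of a listed peak lay within 500 bp of its start, upstream or downstream. The series has 1 group of 3 biological replicates. Each was chromatin from whole pupae of both sexes, of unknown age, from a transgenic line that stably carries GFP at the C terminus of Pif1A. Chromatin was sonicated to 200 to 800 bp, and an anti-GFP antibody was used for the immunoprecipitation. The replicates shared a control and the series has no flies without the tag, so binding that depends on Pif1A and signal that does not cannot be told apart. All cell types of the pupa are mixed, so binding in few cells and weak binding in many cannot be told apart either.

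Transfer RNA genes are short genes transcribed by RNA polymerase III. Their promoter lies inside the gene, in an A box and a B box that are bound by the factor TFIIIC, which places TFIIIB just upstream of the start. Flies carry many identical copies of most tRNA genes, scattered over the arms alone or in clusters. Pif1A is named for its interaction with a kinase of the PFTAIRE family.

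The authors deposited 30000 ranked peaks for each replicate and 30000 for the pooled replicates, which run down to background by construction, and 7283 peaks in the optimal list of the irreproducible discovery rate (IDR) procedure. The 7283 optimal peaks were the 7283 highest of the pooled list, so 7283 peaks were taken from the top of each replicate list to match. The score is the signal value deposited for each peak and ranks peaks within a list. Read counts are not part of the lists, so sequencing depth is unknown and no interval that rests on it is given. Some tRNA genes share a summit, and the 24 distinct optimal summits near tRNA genes are numbered by rank, with summit 1 the highest.

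The sequences below show the windows under the 3 highest summits and under the summit closest to a tRNA gene, each with that gene. They are from the dm6 reference (RefSeq, Release 6). The genes are given in their own direction, with the best B box match in capitals and, where there was a match with at most 1 mismatch, the A box in capitals before it. The windows are 101 bases of the plus strand centred on the summit, with capitals for a searched promoter word. The Tyr gene lies at chr3R:8669081-8669174 on the minus strand, and its peak has the highest score near any tRNA gene. The Gln gene lies at chrX:3427452-3427523 on the minus strand, and the Lys gene at chr2L:8290727-8290799 on the plus strand. The Val gene lies at chr3R:17617761-17617833 on the plus strand. Each of these 4 sequences occurs in 1 gene only. The windows lie at chr3R:8669317-8669417, chrX:3427670-3427770, chr2L:8290987-8291087 and chr3R:17617701-17617801. The windows of summits 1, 2 and 3 hold no base of a tRNA gene, and the last one ends inside the Val gene.
tRNA:Tyr-GTA-1-8: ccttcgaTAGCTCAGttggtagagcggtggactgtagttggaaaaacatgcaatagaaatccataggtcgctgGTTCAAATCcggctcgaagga
tRNA:Gln-TTG-2-1: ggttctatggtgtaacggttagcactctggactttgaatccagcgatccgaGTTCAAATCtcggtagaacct
tRNA:Lys-TTT-1-1: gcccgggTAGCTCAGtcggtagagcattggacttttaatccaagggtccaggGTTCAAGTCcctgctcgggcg
tRNA:Val-CAC-1-1: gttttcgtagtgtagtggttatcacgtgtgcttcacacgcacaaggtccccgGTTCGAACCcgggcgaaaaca
window of summit 1, beside tRNA:Tyr-GTA-1-8: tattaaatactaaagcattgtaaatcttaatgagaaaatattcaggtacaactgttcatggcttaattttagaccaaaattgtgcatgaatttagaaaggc
window of summit 2, beside tRNA:Gln-TTG-2-1: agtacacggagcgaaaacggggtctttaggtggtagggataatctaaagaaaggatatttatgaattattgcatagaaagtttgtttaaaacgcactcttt
window of summit 3, beside tRNA:Lys-TTT-1-1: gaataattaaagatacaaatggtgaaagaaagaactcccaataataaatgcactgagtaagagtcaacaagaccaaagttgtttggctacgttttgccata
window of summit 10, at tRNA:Val-CAC-1-1: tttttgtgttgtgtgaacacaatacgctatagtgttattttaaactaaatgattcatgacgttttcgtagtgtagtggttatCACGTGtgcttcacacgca

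In the optimal list, 34 of the 290 tRNA genes had a summit within 500 bp of the start (11.7%), beside 10.8% of all genes and 11.4% of protein-coding genes counted in the same way. The share of tRNA genes was therefore near the background. For scale, 4.93% of the bases of the arms lay within 500 bp of an optimal summit, and small nucleolar RNA genes, another class of short noncoding genes, had a summit in 10 of 269 cases (3.72%). Small nuclear RNA genes had one in 2 of 32 cases (6.25%) and genes of biotype ncRNA in 303 of 3289 (9.21%). Among the 7283 highest peaks of each replicate, 35 tRNA genes had a summit in replicate 1 (12.1%), 21 in replicate 2 (7.24%) and 35 in replicate 3 (12.1%). The backgrounds over all genes were 13.2% in replicate 1, 12.0% in replicate 2 and 11.7% in replicate 3, and over protein-coding genes 14.4%, 13.0% and 12.6% in the same order. Replicate 2 had the lowest share of tRNA genes of the 3. The mean over replicates was 10.5% ± 2.79 of tRNA genes and 13.3% ± 0.946 of protein-coding genes (SD, n = 3). tRNA genes were below protein-coding genes in 3 of 3 replicates, with a mean difference of -2.85 percentage points (SD 2.67, exact two-sided sign permutation p = 0.25, the smallest that this test allows with 3 replicates).

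The calls at single tRNA genes varied between replicates. Of the 290 genes, 48 had a summit among the highest peaks of at least 1 replicate, and 17 had one in all 3 (35.4% of the 48, beside 41.8% over all genes with a summit in any replicate). All 17 were also among the 34 genes with an optimal summit. When optimal peaks were kept only where both other replicates had a summit within 100 bp, the share was 4.48% of tRNA genes and 7.22% of all genes without replicate 1. It was 6.21% of tRNA genes and 7.80% of all genes without replicate 2, and 5.52% of tRNA genes and 7.35% of all genes without replicate 3. Under this stricter rule tRNA genes were below the background in each version. The optimal list itself was made from all 3 replicates and the versions share peaks, so they are not independent checks.

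**Figure D1:**
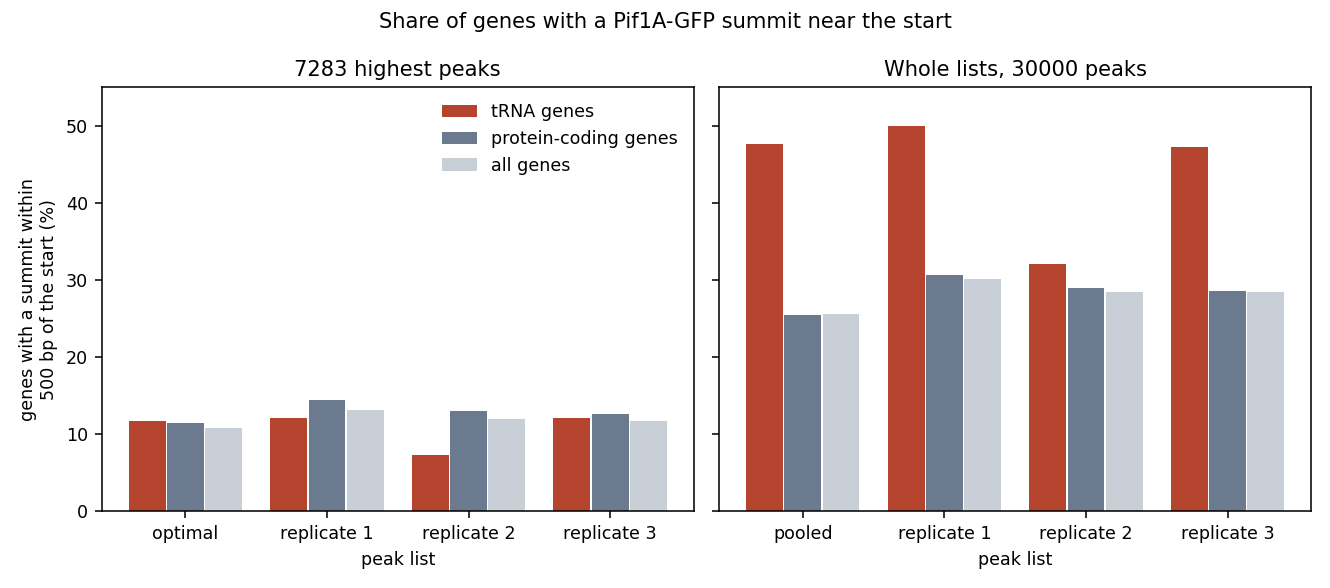
Bars give the percentage of genes with a summit within 500 bp of the start for tRNA genes, protein-coding genes and all genes, in the 7283 highest peaks (left) and in the whole lists of 30000 peaks (right). On the left the tRNA bars lie between 7.24% and 12.1%, close to or under the others, and on the right between 32.1% and 50%, above the others in every list.

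The whole lists, which include peaks too weak to enter the optimal list, gave another picture. A pooled peak lay within 500 bp of 138 of the 290 tRNA genes (47.6%), beside 25.6% of all genes, 25.4% of protein-coding genes and 24 of 269 small nucleolar RNA genes (8.92%). For small nuclear RNA genes the count was 4 of 32 (12.5%), and for genes of biotype ncRNA 883 of 3289 (26.8%). Whole replicate lists reached 145 tRNA genes in replicate 1 (50%), 93 in replicate 2 (32.1%) and 137 in replicate 3 (47.2%), beside 30.1%, 28.4% and 28.5% of all genes in the same order. The excess over protein-coding genes was 19.3 percentage points in replicate 1, 3.20 in replicate 2 and 18.6 in replicate 3. It had the same sign in 3 of 3 replicates but was much smaller in replicate 2. The mean was 43.1% ± 9.66 of tRNA genes and 29.4% ± 1.12 of protein-coding genes (SD, n = 3), a mean difference of 13.7 points (SD 9.12, exact two-sided sign permutation p = 0.25, the smallest that this test allows with 3 replicates). A summit in all 3 whole lists was found for 62 tRNA genes (21.4%), beside 3287 of all genes (18.3%). These are 32.3% of the 192 tRNA genes with a summit in any whole replicate list, beside 45.0% of all such genes. The peaks of the whole lists covered 18.0% of the arms within 500 bp in the pooled list and 17.9% to 18.1% in the replicates.

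Counted by distinct summits, 115 pooled summits lay near tRNA genes, in 72 of the 144 loci described below (50%). The ranks of these pooled peaks were low. The best peak near a tRNA gene had a median rank of 15850 over the 138 genes with a pooled summit, against 9097 over the 4601 genes of all kinds with one. For 104 of the 138 tRNA genes (75.4%) no peak ranked high enough for the optimal list, against 57.8% of all such genes. The 3000 highest pooled peaks reached 11 tRNA genes (3.79%) and 5.28% of all genes. Peaks of rank 12001 to 15000 reached 22 tRNA genes (7.59%) and 3.11% of all genes, and peaks of rank 24001 to 27000 reached 21 tRNA genes (7.24%) and 2.02% of all genes. The share of all genes reached thus declined from bin to bin down the list, whereas the share of tRNA genes was larger in each of the 6 bins below rank 12000 than in any bin above it.

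**Figure D2:**
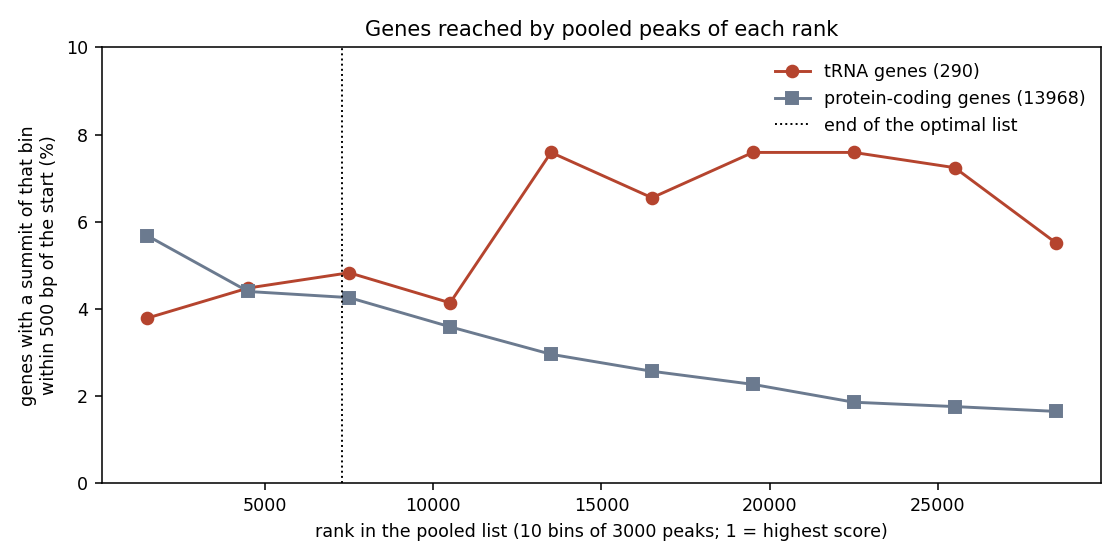
Each point is the percentage of genes with a summit from 1 bin of 3000 pooled peaks within 500 bp of the start, plotted at the middle rank of the bin, for the 290 tRNA genes and the 13968 protein-coding genes. The dotted line marks rank 7283, the end of the optimal list, and the tRNA curve lies between 5.52% and 7.59% in the 6 bins at the right, where protein-coding genes lie between 1.65% and 2.96%.

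The 24 optimal summits near tRNA genes were of modest rank. Their median rank was 4764 of 7283, 15 of the 24 (62.5%) lay below the midpoint of the list, and their median score was 124, against 153 over all optimal peaks. A summit within 100 bp was present among the highest peaks of all 3 replicates for 10 of the 24 (41.7%), beside 4087 of all 7283 optimal summits (56.1%). It was present in 2 replicates for 6 summits, in 1 replicate for 7 and in none for 1. In the whole replicate lists 18 of the 24 were present in all 3.

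The highest of them, summit 1, had rank 109 and score 942, and ranked 96 in replicate 1, 135 in replicate 2 and 114 in replicate 3. It lay 193 bp upstream of tRNA:Tyr-GTA-1-8, a tyrosine tRNA gene with an intron inside the protein-coding genes p and CG8036, and 251 bp from a TSS of CG8036. Its 3 replicate ranks lie within the 135 highest peaks, far above those of any other summit near a tRNA gene. Summit 2 had rank 502, and ranked 427, 378 and 945 in replicates 1, 2 and 3. It lay 197 bp upstream of the glutamine gene tRNA:Gln-TTG-2-1 inside CG12535, with the nearest protein-coding TSS 8087 bp away. Summit 3 had rank 723, and ranked 863, 785 and 699 in replicates 1, 2 and 3. It lay 310 bp downstream of the start of the lysine gene tRNA:Lys-TTT-1-1, inside Btk, which encodes a tyrosine kinase, and 6087 bp from the nearest protein-coding TSS. Summits 2 and 3 are thus strong in every replicate and far from any protein-coding start.

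Summits 4 to 7 were also among the highest peaks of every replicate. Summit 4 had rank 1105, and ranked 1124, 1222 and 1251 in replicates 1, 2 and 3. It lay 168 bp upstream of the histidine gene tRNA:His-GTG-1-3, but only 82 bp from the TSS of CG8490. Summit 5 had rank 1942, and ranked 2394, 1519 and 2700 in replicates 1, 2 and 3. It lay 461 bp from the start of the valine gene tRNA:Val-CAC-2-5 and 438 bp from that of Naam, which encodes a nicotinamidase. Summit 6 had rank 2094, and ranked 2972, 1865 and 2463 in replicates 1, 2 and 3. It lay 356 bp upstream of the proline gene tRNA:Pro-AGG-1-2 in intergenic sequence, 10269 bp from the nearest protein-coding TSS. Summit 7 had rank 2325, and ranked 2327, 2133 and 3669 in replicates 1, 2 and 3. It lay 26 bp from the TSS of RpL17, a protein of the large ribosomal subunit, and 346 bp from the start of the phenylalanine gene tRNA:Phe-GAA-1-2.

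From rank 2816 down, the replicates differed more. Summit 8, 230 bp upstream of the leucine gene tRNA:Leu-TAA-2-1 and 345 bp from the TSS of CG13605, ranked 2845 in replicate 1 and 8142 in replicate 2, and replicate 3 had no summit within 100 bp. Summit 11, 447 bp upstream of the phenylalanine gene tRNA:Phe-GAA-1-6, ranked 6908 in replicate 1 and 3370 in replicate 2, and replicate 3 had no summit within 100 bp. These misses refer to the 100 bp limit for a match. Among its highest peaks, replicate 3 did have a summit within 500 bp of tRNA:Leu-TAA-2-1 and of tRNA:Phe-GAA-1-6. The distances of those replicate 3 summits from summits 8 and 11 were not measured. Replicate 2 also had a summit among its highest peaks within 500 bp of tRNA:Leu-TAA-2-1. The replicate 1 match of summit 11 lay more than 500 bp from tRNA:Phe-GAA-1-6. Summit 13 lay between the glutamine genes tRNA:Gln-TTG-1-2 and tRNA:Gln-TTG-1-3, 356 bp from the TSS of Spag1. It ranked 2403 in replicate 1 and 3169 in replicate 3, and was not found in replicate 2. Summit 14, 67 bp upstream of the leucine gene tRNA:Leu-AAG-1-1 inside pcs, ranked 6245, 6690 and 4948 in replicates 1, 2 and 3. Summit 15, at rank 5527, lay 119 bp from a TSS of Bx, a LIM-only protein, and 423 bp from tRNA:Pro-CGG-2-1. Summit 17, at rank 5896, lay 38 bp from a TSS of Sema1a, an axon guidance protein, 348 bp from the start of the aspartate gene tRNA:Asp-GTC-1-5 and 486 bp from that of tRNA:Asp-GTC-1-4. Of summits 18 to 24, none was among the highest peaks of all 3 replicates. Summit 18, 392 bp from the start of the arginine gene tRNA:Arg-TCG-3-4, ranked 6848 in replicate 1, 14926 in replicate 2 and 4149 in replicate 3. Summit 19, 408 bp from the start of the alanine gene tRNA:Ala-TGC-2-1, ranked 7384, 4657 and 10922 in replicates 1, 2 and 3. Summit 20, 154 bp upstream of tRNA:Arg-CCT-1-3 and 297 bp upstream of tRNA:Arg-CCT-1-2, ranked 5619, 24450 and 16816 in replicates 1, 2 and 3. Summit 24, the lowest at rank 7192, had 3 glutamate genes within 500 bp and ranked 9809 in replicate 1 and 7770 in replicate 2, with no match in replicate 3. These ranks are of matches within 100 bp. Within 500 bp of tRNA:Ala-TGC-2-1, tRNA:Arg-CCT-1-2 and tRNA:Arg-CCT-1-3, replicate 3 had a summit among its highest peaks. Replicate 1 had one near tRNA:Glu-TTC-1-1 and tRNA:Glu-CTC-1-1, though not near tRNA:Glu-TTC-1-2.

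**Figure D3:**
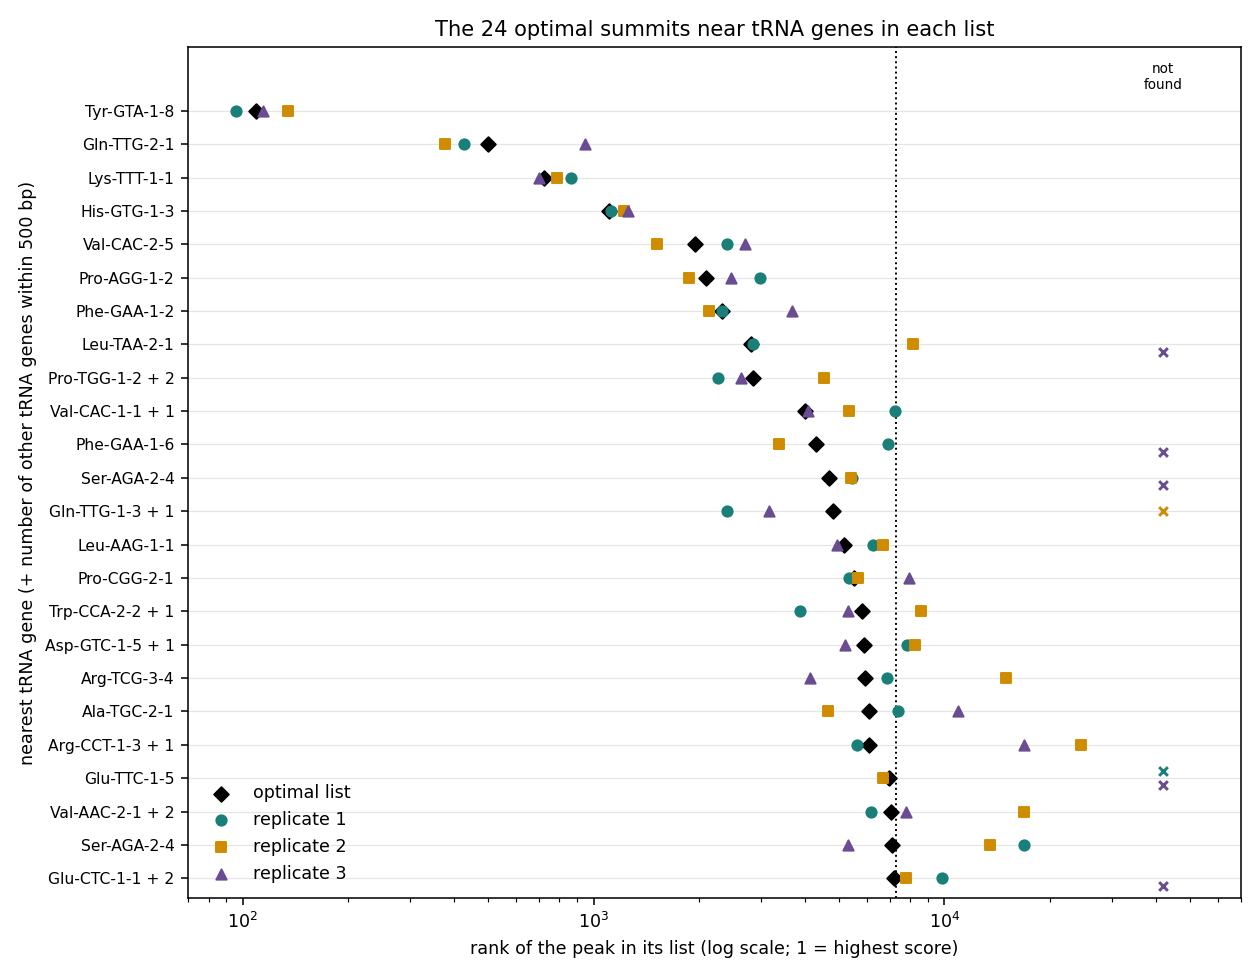
Each row is 1 of the 24 optimal summits near tRNA genes, named by the nearest tRNA gene, and symbols give its rank on a log scale in the optimal list and in each replicate list of 30000 peaks. Crosses at the right mark a replicate with no summit within 100 bp, and the dotted line marks rank 7283. The first 7 summits stand at or left of rank 3669 in every replicate, and lower in the plot the symbols spread apart.

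The optimal summits lay beside tRNA genes and not inside them. None of the 24 summits fell inside a tRNA gene body, and 5 lay within 50 bp of one. These were summit 10, 10 bp upstream of tRNA:Val-CAC-1-1, summit 24, 15 bp past the end of tRNA:Glu-CTC-1-1, and summit 16, 16 bp past the end of the tryptophan gene tRNA:Trp-CCA-2-2. The other two were summit 23, 30 bp upstream of the serine gene tRNA:Ser-AGA-2-4, and summit 13, 38 bp past the end of tRNA:Gln-TTG-1-3. All 5 had rank 4012 or a lower place in the optimal list, and summit 10 was the only one of the 5 among the highest peaks of all 3 replicates, with rank 7219 in replicate 1, 5355 in replicate 2 and 4093 in replicate 3. The replicate 1 match of summit 10 lay 18 bp downstream of the start, inside the gene. tRNA:Ser-AGA-2-4 had 2 optimal summits, on either side of the gene, the other being summit 12 at rank 4700. Summit 12 ranked 5437 in replicate 1 and 5433 in replicate 2, and was not found in replicate 3.

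Over the 34 genes the nearest summit was a median of 234 bp from the start (quartiles 133 and 354, range 10 to 486), against 155 bp over the 1592 protein-coding genes with a summit. It was upstream of 18 tRNA genes and downstream of the start of 16. A summit within 100 bp was found for 7 of the 34 (20.6%), beside 29.8% of protein-coding genes with a summit, and within 200 bp for 16 (47.1%), beside 61.7%. Protein-coding genes showed a crest just upstream of the start, with 3.04 optimal summits per 100 genes at 100 to 200 bp upstream, where tRNA genes had 1.72. At 300 to 400 bp downstream tRNA genes also had 1.72 per 100 genes, from only 5 summits, and protein-coding genes had 0.473. At 200 to 300 bp downstream tRNA genes had 1 summit (0.345 per 100 genes), and protein-coding genes had 0.387 per 100 genes. The members nearest to the limit were tRNA:Asp-GTC-1-4 at 486 bp and tRNA:Val-AAC-2-2 at 481 bp inside it, and tRNA:Leu-CAA-2-2 at 567 bp and tRNA:Gly-TCC-2-2 at 583 bp outside it.

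In the whole pooled list the nearest summits were closer to the gene start, at a median of 152 bp. A pooled summit lay inside the body of 22 of the 290 tRNA genes, beside 12 with a summit in the stretch of the same length just upstream and 23 in the one just downstream. In the optimal list the same counts were 0 inside, 4 upstream and 4 downstream. Whole replicate lists had a summit inside the body of 21 genes in replicate 1, 10 in replicate 2 and 17 in replicate 3. The equal stretches upstream and downstream had 16 and 25 in replicate 1, 6 and 7 in replicate 2, and 18 and 20 in replicate 3. Replicate 2 was again the lowest. The densest pooled bins were those at 0 to 100 bp and 100 to 200 bp downstream of the tRNA gene start, with 9.66 and 9.31 summits per 100 genes, against 3.72 and 2.21 for protein-coding genes. Pooled summits were denser at tRNA genes far from the start as well. Both 900 to 1000 bp upstream and 500 to 600 bp downstream had 5.86 per 100 genes, against 1.98 and 1.51. Only the bin at 0 to 100 bp upstream was lower for tRNA genes, with 4.83 against 5.59. The part that the multiple copies of tRNA genes and the placement of their reads have in these positions was not tested.

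**Figure D4:**
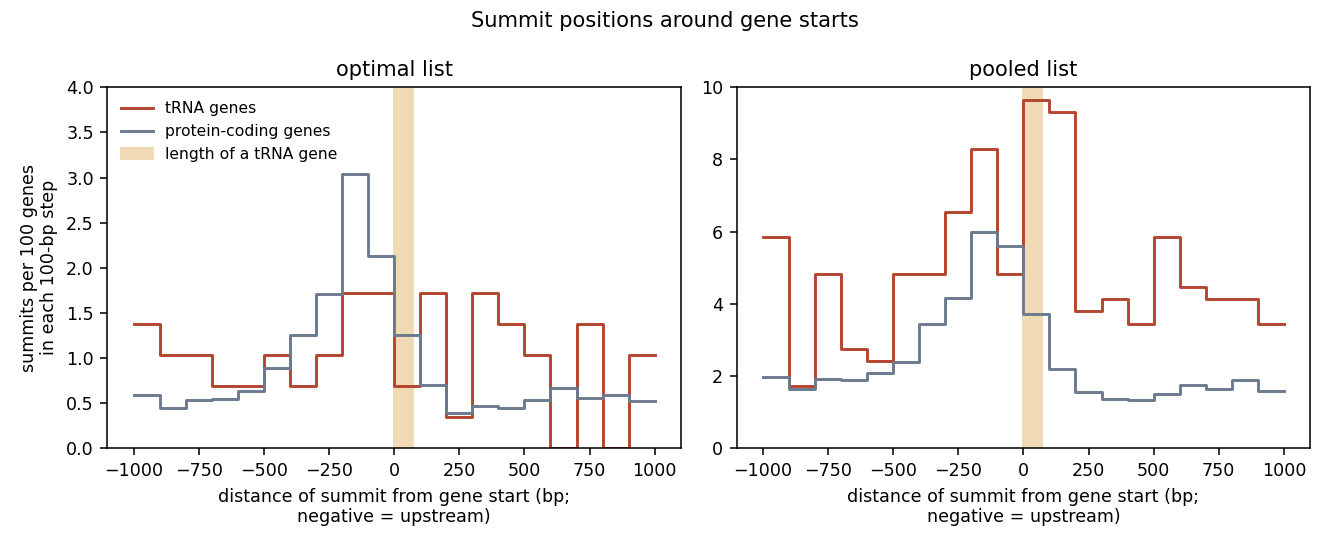
Lines give the number of summits per 100 genes in steps of 100 bp from the gene start, in the direction of transcription, for tRNA genes and protein-coding genes in the optimal list (left) and the pooled list (right), on different vertical scales. Protein-coding genes crest just upstream of the start in both lists, and tRNA genes have no single crest on the left and reach 9.66 just downstream of the start on the right.

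Some of these summits lay near protein-coding promoters. Of the 24, 9 had a protein-coding TSS within 500 bp, and 5 of the 9 were nearer to that TSS than to any tRNA gene start (20.8% of the 24), namely summits 4, 5, 7, 15 and 17. No protein-coding TSS lay within 500 bp of the other 15, or within 2000 bp of 10. By gene, 32 tRNA genes started within 500 bp of a protein-coding TSS and 9 of these had an optimal summit (28.1%). Farther away the share was 10 of 91 above 500 and up to 2000 bp (11.0%), 11 of 108 above 2000 and up to 10000 bp (10.2%) and 4 of 59 beyond 10000 bp (6.78%). The pooled list had another order, with 46.9%, 38.5%, 49.1% and 59.3% of tRNA genes in the same distance classes. For the 258 tRNA genes with no protein-coding TSS within 500 bp, a group chosen after the values were seen, the optimal share was 9.69%. An optimal summit was found at 22 of 156 intergenic tRNA genes (14.1%), at 8 of 75 inside a protein-coding gene on the opposite strand (10.7%) and at 4 of 59 inside one on the same strand (6.78%). By distance class, from the nearest to the farthest, the tRNA genes with an optimal summit lay in 7, 6, 7 and 4 loci. The share over all genes, 10.8%, was not split by distance to a TSS or by host gene. No order among these classes was tested.

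Genes were joined into loci where neighbouring starts lay within 5000 bp, which gave 144 loci, 76 of them of 1 gene. An optimal summit was found in 22 loci (15.3%). It was found in 7 of the 76 loci of 1 gene, in 12 of 58 with 2 to 4 genes, in 2 of 8 with 5 to 9 genes and in 1 of 2 with more. Loci of several genes span more sequence than 1 gene, so the 15.3% cannot be set beside the 10.8% of all genes. The share of genes with a pooled summit was larger in larger loci, at 35.5%, 45.8%, 60.0% and 72.7% in these size classes, where several genes can share a summit. For optimal summits the shares of genes were 9.21%, 14.1%, 4.00% and 22.7%, with no such order. The loci with the most genes, 11 each, differed in the optimal list. On 3R, the locus at 17617761 to 17631750 has 4 alanine, 3 proline, 2 valine and 2 threonine genes. Its 5 leftmost genes had an optimal summit, and the same 5 had one among the highest peaks of each replicate. These are summit 10 at tRNA:Val-CAC-1-1 and tRNA:Pro-TGG-1-1, and summit 9, at rank 2848, among tRNA:Ala-AGC-2-2, tRNA:Pro-TGG-1-2 and tRNA:Ala-AGC-2-3. Summit 9 ranked 2261 in replicate 1, 4536 in replicate 2 and 2625 in replicate 3, and the nearest protein-coding TSS, of CG14326, is 769 bp away. The other 6 genes of the locus had no optimal summit. On 2R, the locus at 6161535 to 6171759 has 4 lysine, 3 arginine, 3 asparagine and 1 isoleucine genes and a TSS of EcR, the ecdysone receptor gene. None of its genes had an optimal summit or one among the highest peaks of any replicate, although 8 of the 11 had a pooled one, with best ranks of 15850 to 28157.

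**Figure D5:**
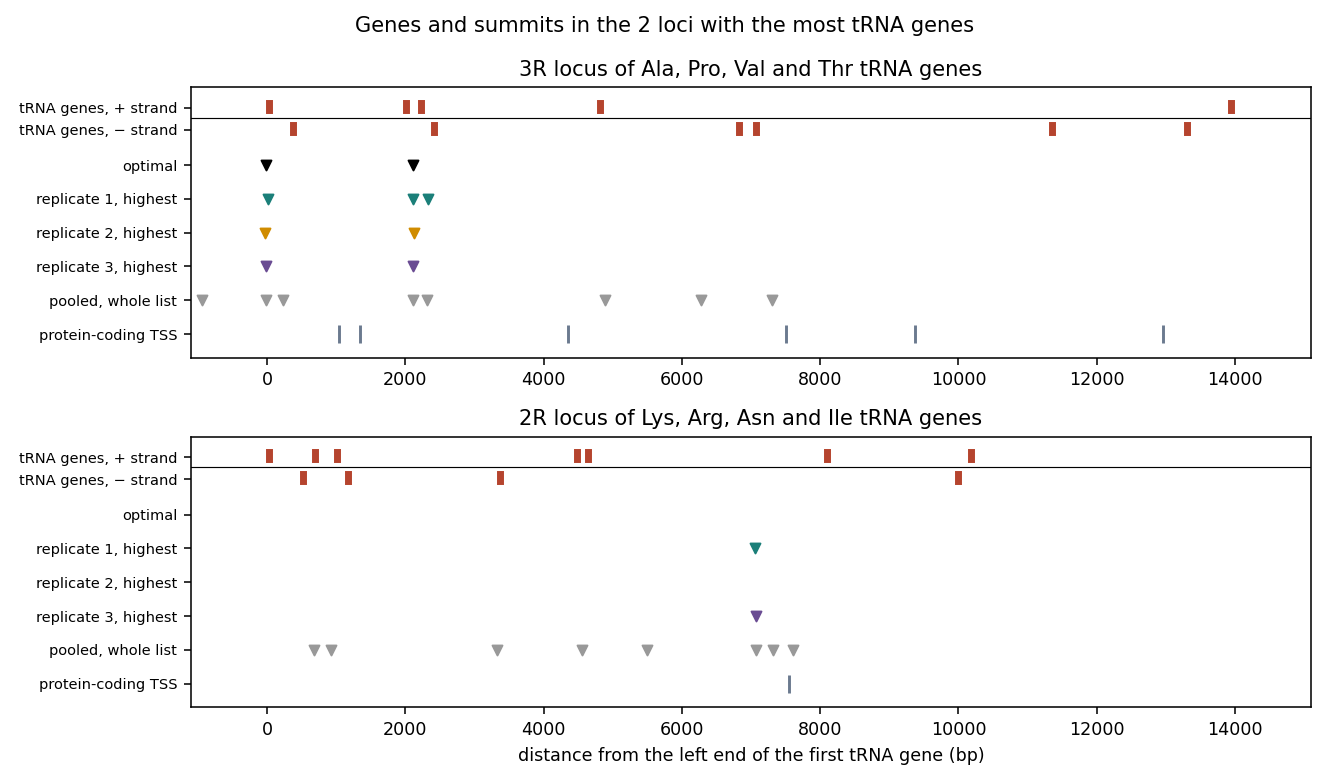
The 2 loci with 11 tRNA genes each are drawn to scale, with tRNA genes as blocks above (plus strand) or below (minus strand) the line, summits as triangles for the optimal list, the 7283 highest peaks of each replicate and the whole pooled list, and protein-coding TSSs as ticks. The left end of the 3R locus has optimal and replicate summits at 2 places, and the 2R locus has pooled summits near its tRNA genes and no optimal one.

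The next largest loci had few optimal summits. A locus of 5 isoleucine and 2 leucine genes on 2R, starting at 13430282, had no optimal summit and 1 gene with a pooled one. A locus of 5 glutamate and 2 initiator methionine genes on 2R, starting at 19725620, had 1 gene with an optimal summit, tRNA:Glu-TTC-1-5, and 5 with a pooled one. On X, the locus of 5 arginine and 2 serine genes starting at 14014814 had 1 gene with an optimal summit, tRNA:Arg-TCG-3-4, at its right end, and 4 with a pooled one. The 4 loci of 6 genes had no optimal summit. On 3L, 2 of 6 glutamate genes starting at 1397695 had a pooled summit, as did 3 of 6 cysteine and lysine genes starting at 3095737 and 5 of 6 leucine genes starting at 8060214. On 3R, all 6 genes of the locus starting at 8139533, of which 5 are arginine genes and 1 an asparagine gene, had a pooled one. Among the highest peaks, 4 genes of the cysteine and lysine locus had a summit in replicate 3 only, and 3 of the leucine genes in replicate 1 only. By arm, the optimal list reached 5 of 41 tRNA genes on 2L, 14 of 98 on 2R, 0 of 48 on 3L, 11 of 79 on 3R and 4 of 24 on X. These are 12.2%, 14.3%, 0%, 13.9% and 16.7% of tRNA genes, beside 11.0%, 10.4%, 10.6%, 10.3% and 12.4% of all genes on the same arms. The 48 genes on 3L form 23 loci, and 20 of them had a pooled summit (41.7%). The highest peaks reached 3 of these 48 genes in replicate 1, 0 in replicate 2 and 6 in replicate 3.

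By amino acid, among isotypes of at least 5 genes, valine had the highest share of genes with an optimal summit (4 of 15, 26.7%), followed by glutamine (3 of 12, 25.0%) and phenylalanine (2 of 8, 25.0%). The share over all genes was 10.8%. At tRNA:Val-CAC-2-5 (summit 5) and tRNA:Phe-GAA-1-2 (summit 7) the summit was nearer to a protein-coding TSS. Among the highest peaks, valine genes had a summit in 4 cases in replicate 1, 2 in replicate 2 and 2 in replicate 3, and glutamine genes in 3, 1 and 3. Phenylalanine genes had 1 in replicate 1, 2 in replicate 2 and 2 in replicate 3. No optimal summit was near any of the 17 threonine, 11 isoleucine, 10 asparagine, 7 cysteine, 6 elongator methionine or 6 initiator methionine genes. These counts are small, and genes of 1 isotype share loci and summits, so no order among isotypes was tested. In the pooled list the isotypes without an optimal summit did have peaks, at 9 of 17 threonine genes, 4 of 11 isoleucine genes, 5 of 10 asparagine genes, 2 of 7 cysteine genes and 2 of 6 genes in either methionine class. Over all genes the pooled share was 25.6%.

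The 290 genes have 95 distinct sequences, and 238 genes (82.1%) have at least 1 identical copy elsewhere, up to 13 genes of 1 sequence. Reads inside such genes cannot be placed uniquely, and no source used here says how the authors treated them. An optimal summit was found for 7 of 52 genes of unique sequence (13.5%), 10 of 58 with 2 to 4 identical genes (17.2%) and 17 of 180 with 5 or more (9.44%). In the pooled list the shares were 42.3%, 51.7% and 47.8% in the same classes. The pooled share over all genes was 25.6%. Unique here means only that no other tRNA gene has exactly the same sequence. For example, tRNA:Gln-TTG-2-1 counts as unique but is nearly the same as tRNA:Gln-TTG-1-3. The part of read placement in these shares was not tested. Identical copies could differ in their call. Of the 13 identical lysine genes tRNA:Lys-CTT-1 none had an optimal summit, and of the 13 identical glycine genes tRNA:Gly-GCC-1 only tRNA:Gly-GCC-1-9 did, through summit 16. That summit also lies 374 bp from the TSS of CG30122.

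Matches to the internal promoter boxes were found in tRNA genes with and without a summit. The B box, searched as GTTCGANNC on both strands with at most 1 mismatch at its fixed letters, was found in all 290 genes, and in 9.06% of windows of 73 bases from the start of protein-coding genes. A match present in all tRNA genes cannot separate those with a summit from those without. An exact B box was found in 17 of the 34 genes with an optimal summit (50%) and in 143 of the 256 without (55.9%), beside 0.430% of the protein-coding windows. The A box, searched as TGGCNNAG with at most 1 mismatch, was found in 76.5% of genes with a summit and in 82.8% of those without, beside 23.3% of the protein-coding windows. Within 50 bases of the summits, words known from fly promoters were rare. CACGTG occurred at 1 of the 24 summits near tRNA genes, beside 0.673% of all optimal summits. That match lies inside the Val gene under summit 10, in the window printed above. ACACAC occurred at 1 of the 24, beside 6.27% of all optimal summits. TATCGATA was absent from the 24, beside 0.522% of all optimal summits. CGATA, which is part of it, was absent as well, beside 11.0%. GAGAGA was absent, beside 6.36%, and GGTCACACT was absent, beside 0.275%. The median GC content within 50 bases was 33.7% at the 24 summits and 32.7% at all optimal summits, against 58.5% in tRNA genes themselves.

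The protein-coding genes of tRNA synthesis and use had optimal summits at a share near the background. Of 74 listed genes 73 were matched, and 10 of them had an optimal summit within 500 bp of any TSS (13.7%), beside 14.1% of protein-coding genes counted in that way. Among RNA polymerase III subunits and factors 5 of 21 had one, among cytosolic aminoacyl-tRNA synthetases 3 of 20, among mitochondrial synthetases 0 of 15 and among processing and modification genes 2 of 17. The highest was at Brf, a subunit of TFIIIB, with score 466 and rank 619, 205 bp from a TSS. Next were GluProRS, the synthetase for glutamate and proline, with score 301, and the polymerase subunit gene Polr3E with score 245. AspRS, the aspartate synthetase, had score 228, and AlaRS, the alanine synthetase, score 120. For Brf, GluProRS, Polr3E and AspRS, each of the 3 replicates had a summit within 500 bp of a TSS among its highest peaks. The optimal summit of each of these 4 genes also has a TSS of another protein-coding gene within 500 bp (sds22 at Brf, AP-1sigma at GluProRS, CG10584 at Polr3E and Nmda1 at AspRS). The polymerase subunit genes Polr3A, Polr3B, Polr3C and Polr3D had no optimal summit.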

How the data were processed

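The peak lists were made by the authors as narrowPeak tables on dm6, per the deposited file descriptions, with replicate and pooled lists as input for IDR and an optimal list derived from them. Column 7, the signal value deposited by the authors, was used to rank peaks within a list. Aligner, peak caller, IDR threshold and handling of multi-mapping reads are unknown, since no source used here names them. The dm3 lists were not used.

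Summits (peak start plus deposited offset, 1-based) were compared with gene starts on the arms with Python 3.11.15, numpy 2.4.6, pandas 2.3.3 and matplotlib 3.10.9, with a window of 500 bp. A replicate matched a summit when it had one within 100 bp. No count model was used, since the lists hold no read counts, and shares of genes were compared over the 3 replicates by an exact sign permutation only. The search was tested on simulated data, where 200 of 200 planted genes were found. Genes are named for the 20 highest summits near tRNA genes, those within 50 bp of a gene, the 6 loci with the most genes and those of the same size, the 3 isotypes with the highest and those with the lowest shares, the 6 highest and the 4 leading members without a peak of the pathway lists, and the members nearest to 500 bp. The small nucleolar RNA, small nuclear RNA and ncRNA classes and the tRNA families were named after their values were seen. A gene that this rule selects is not reported here. The members, lists and alternatives were chosen with earlier results of these data known.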

Additional observations from a re-analysis of the deposited data

Results flagged for a closer look

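The list of replicate 1 holds 16 entries on the mitochondrial genome, the highest at rank 18, and the lists of the other replicates, the pooled list and the optimal list hold none. Through them, 7 of the 22 mitochondrial tRNA genes, which lie outside the 290 nuclear ones, had a summit within 500 bp of the start in replicate 1. These entries were singled out because they lie in data outside the comparisons above and occur in 1 replicate. They are among the 30000 peaks of that list and take some of its highest 7283 places.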

How the results depend on the processing

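Of the alternatives, a window of 200 bp gave 5.52% of tRNA genes, 7.64% of loci, 5.17% as the replicate mean, 29.0% in the pooled list, 7.69% of summits nearer to a protein-coding TSS and 8.22% of the listed protein-coding genes. A window of 1000 bp gave 18.3%, 22.2%, 18.2% and 60.7% for tRNA genes, loci, the replicate mean and the pooled list. Beside these, all genes were at 6.35% with 200 bp and 15.3% with 1000 bp, so tRNA genes were below all genes at 200 bp and above them at 500 and 1000 bp. Above the midpoint of the lists, the values were 3.79% of tRNA genes (6.09% of all genes), 6.25% of loci, 4.48% as the replicate mean and 33.3% nearer to a protein-coding TSS. Requiring the peak to overlap the gene gave 4.83% and giving each summit to its nearest gene start 6.21%. Whole lists gave 43.1% as the replicate mean and 18 summits in every replicate, against 10, and the pooled list a median distance of 152 bp. Leaving out each replicate in turn gave 4.48% to 6.21% of tRNA genes, 6.25% to 8.33% of loci, 9.66% to 12.1% as the replicate mean and 23.1% to 30.8% nearer to a protein-coding TSS. Leaving out a replicate and the higher ranks keep fewer peaks by construction, and for the rest the cause was not tested.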

Other observations

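Of 9 other noncoding RNA genes, listed as candidate RNA polymerase III genes after the values were seen, 1 had an optimal summit within 500 bp. The share over all genes was 10.8%. Which polymerase transcribes each of the 9 was not examined. The 7SK gene snRNA:7SKa had one 272 bp from its start, at rank 2625 with score 195. The second 7SK gene, the 3 U6 genes, both 7SL genes and the RNA genes of RNase P and RNase MRP had none within 500 bp, and the nearest lay 1637 bp away, from a 7SL gene. None of the 96 genes for 5S rRNA had one, and these are near-identical tandem copies.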
